A study of Sus scrofa with 6 samples.

Results

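Zinc crosses the membranes of a cell through 2 families of carriers. Proteins of the SLC39 family move zinc into the cytosol, from outside the cell or out of organelles, and proteins of the SLC30 family move it out of the cytosol, across the plasma membrane or into organelles. In mouse oocytes zinc accumulates during meiotic maturation, SLC39A6 and SLC39A10 are known as maternal importers, and zinc is released again after fertilization. The genes described here were chosen by name from the deposited gene table: *SLC39A1*, *SLC39A6*, *SLC39A7*, *SLC39A8*, *SLC39A10* and *SLC39A14* of the importers, and *SLC30A1*, *SLC30A5*, *SLC30A7* and *SLC30A9* of the exporters. Of these 10 genes, 9 had a row under their name among 24358 genes, 5 importers and 4 exporters. *SLC39A10* was included because its values were lower in every *CARM1* siRNA embryo, so its difference between the groups is given as a description without a test.

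RNA was sequenced from single pig embryos collected on day 5, which the labels call blastocysts. The 3 control embryos were not injected, and the 3 *CARM1* KD embryos came from MII oocytes that received about 10 pl of 50 μM siRNA against *CARM1*, an arginine methyltransferase that acts on histone H3. Because the controls carried neither siRNA nor an injection, the effect of injection and that of the siRNA cannot be told apart in this comparison. Whether they were parthenogenetic or fertilized is not stated in the labels or methods. All 6 embryos were sequenced without sorting of cells, so fewer cells of a type and less RNA per cell cannot be told apart.

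The libraries held between 26341924 and 41727594 estimated counts and between 11173 and 14822 genes with a count. *CARM1* was at 1.96, 4.54 and 1.26 FPKM (fragments per kilobase of transcript, scaled to the depth of the library) in control 1, 2 and 3, and at 0.130, 0.150 and 0.274 FPKM in *CARM1* KD 1, 2 and 3. The siRNA target was thus lower in every injected embryo. Control 2 and *CARM1* KD 3 stood apart by their content of cell type markers. In control 2, oocyte markers (7 of 8 on the list found) reached a sum of 2288 FPKM, and in *CARM1* KD 3 of 747 FPKM, against 14.7 to 357 FPKM in the other 4 embryos. For trophectoderm markers (6 of 6 found) the sum was lowest in the same embryos, 1.62 and 35.1 FPKM, against 88.5 to 335 FPKM in the others. The keratins *KRT8* and *KRT18* of the blastocyst epithelium were at 0.0484 and 0 FPKM in control 2 and both at 0 in *CARM1* KD 3, which goes against the label of blastocyst for these embryos. Not every trophectoderm marker followed this order. *CDX2*, a defining trophectoderm gene, was at 0.445 FPKM in control 2, at 0.136 FPKM in *CARM1* KD 2 and at 0 elsewhere. *GATA2* was higher in control 2 (0.536 FPKM) than in control 1 (0.0841 FPKM) and *CARM1* KD 2 (0.293 FPKM), but at 0 in *CARM1* KD 3. *TFAP2C* was lowest in control 2 (0.586 FPKM), but higher in *CARM1* KD 3 (35.1 FPKM) than in *CARM1* KD 2 (27.9 FPKM). *GATA3* was at 0 in both control 2 and *CARM1* KD 3. Control 2 also had the highest share of counts from the mitochondrial genome, 46.0% against 14.5 to 23.9% elsewhere, and a count of 0 for 18.3% of the 10639 genes tested, against 1.78 to 5.90% elsewhere. Where leaving out control 2 or *CARM1* KD 3 turned the direction of a log2 fold change, the value without it is given below. Moves that turned no direction are given for some genes only.

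*SLC39A10* was the most abundant of the zinc transporters in each control embryo and held rank 5, 8 and 3 of the 9 in *CARM1* KD 1, 2 and 3. The gene (ENSSSCG00000031954) lies on chromosome 15 at 99584613 to 99724613 on the plus strand in the coordinates of the deposited table, and encodes a plasma membrane importer of the LIV-1 subfamily, which in mouse and zebrafish cells forms a complex with SLC39A6. Its level was 15.1, 24.5 and 17.2 FPKM in control 1, 2 and 3, and 4.70, 2.25 and 6.41 FPKM in *CARM1* KD 1, 2 and 3. Every control embryo was above every *CARM1* KD embryo, with control 2 the highest and *CARM1* KD 2 the lowest. The mean was 18.9 ± 4.93 FPKM (SD, n = 3) in controls and 4.46 ± 2.09 FPKM (SD, n = 3) in *CARM1* KD, or 23.5% of the control mean. The estimated counts behind these values were 4751, 5378 and 3420 in the controls and 1397, 636 and 1951 in *CARM1* KD. The log2 fold change of the edgeR fit was -2.30 with a standard error of 0.66. Among all genes tested, 1.07% had every *CARM1* KD value below every control value in FPKM, and nothing is read from this share because *SLC39A10* was chosen for that pattern.

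In FPKM, the 2 embryos rich in oocyte transcripts were also those with the most *SLC39A10* in their own groups. In CPM (counts scaled to the library total) with TMM scaling this held for control 2 only. *CARM1* KD 1 and 3 were then nearly level, at 36.75 and 36.64. In FPKM control 2 and *CARM1* KD 3 were each the highest of their group for *SLC39A10*, *SLC39A6* and *SLC39A8*, 3 of the 9 transporters. The same was seen in FPKM for 27.3% of all genes tested. *CARM1* KD 2, with the lowest sum of oocyte markers (14.7 FPKM), had the least *SLC39A10*. The order did not hold throughout, since control 3, with 56.7 FPKM of oocyte markers, had more *SLC39A10* than control 1 with 357 FPKM, and *CARM1* KD 3 with 747 FPKM had less than either. The part of the oocyte transcripts in the level of *SLC39A10* was not tested. With control 2 and *CARM1* KD 3 left out, the remaining controls stood at 15.1 and 17.2 FPKM and the remaining *CARM1* KD embryos at 4.70 and 2.25 FPKM, and the log2 fold change was -2.16.

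**Figure D1:**
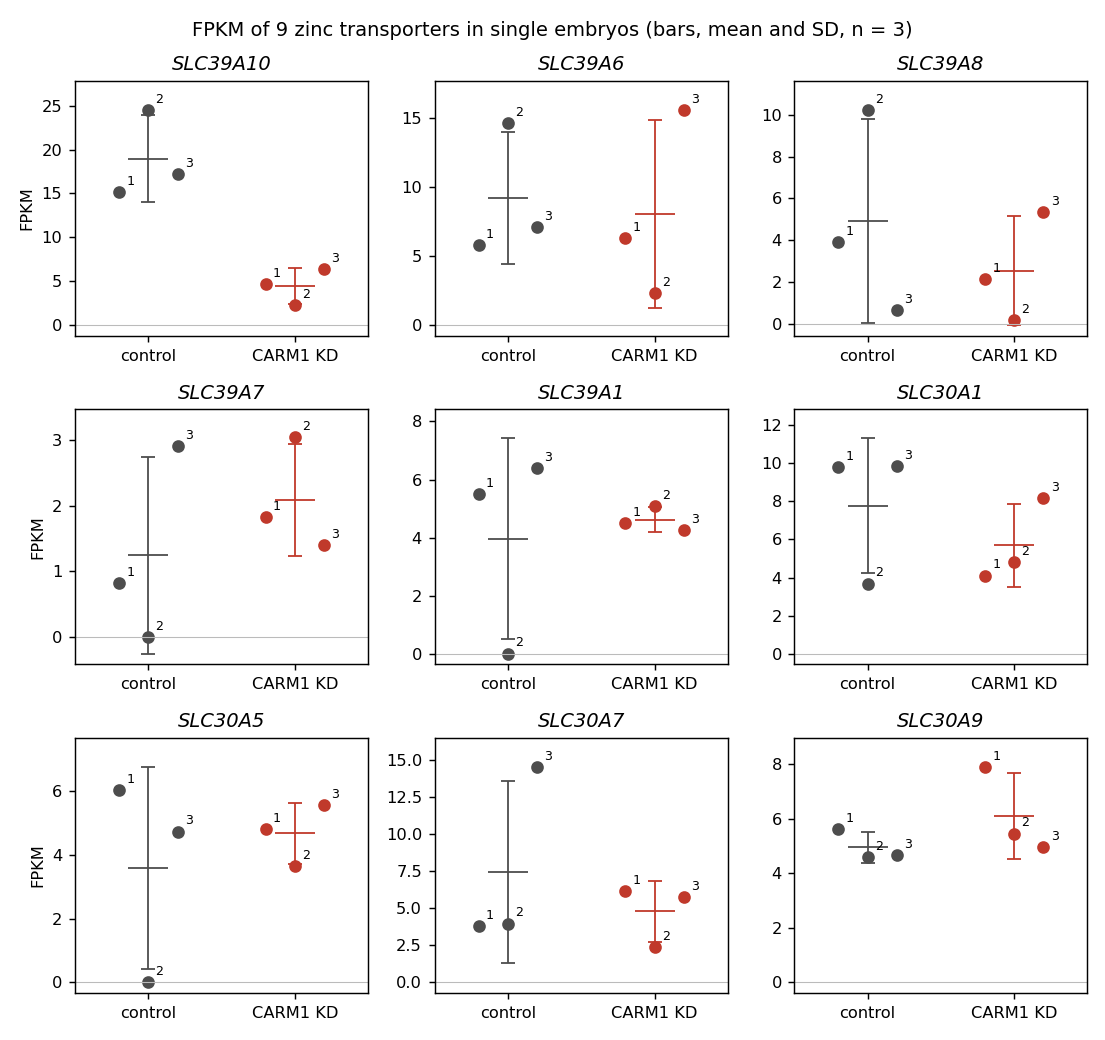
FPKM of the 9 zinc transporters found in the table, one panel per gene, with the control embryos in grey and the *CARM1* KD embryos in red. Each point is 1 embryo with its replicate number, and the bars give the mean and the SD (n = 3). Only for *SLC39A10* do the points of the groups not overlap (15.1 to 24.5 FPKM in controls, 2.25 to 6.41 FPKM in *CARM1* KD).

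Most *SLC39A10* counts in 5 of the 6 embryos were assigned to 1 transcript, and those of *CARM1* KD 2 to another. Transcript ENSSSCT00000055412, with 9 exons and a start at position 99654352, took 96.9%, 91.0% and 94.3% of the gene's estimated counts in control 1, 2 and 3. In *CARM1* KD 1 and 3 its share was 88.8% and 93.6%, but in *CARM1* KD 2 it was 14.2%. There ENSSSCT00000049691, with 11 exons and a start 69739 bases upstream at position 99584613, took 85.9% of the counts, against 1.36 to 9.0% in the other 5 embryos. The 11-exon transcript had 146, 484 and 142 estimated counts in the controls and 19, 546 and 83 in *CARM1* KD, so its groups overlapped. The 9-exon transcript had 4605, 4894 and 3225 estimated counts in the controls and 1241, 90 and 1827 in *CARM1* KD, and its groups did not overlap. Since it took 91.0 to 96.9% of the counts in controls, this largely restates the pattern for which *SLC39A10* was chosen. The lower level of the gene in *CARM1* KD lay in the 9-exon transcript, at 22.9 ± 5.20 FPKM (SD, n = 3) in controls and 4.51 ± 3.74 FPKM (SD, n = 3) in *CARM1* KD. The 11-exon transcript was at 1.46 ± 1.23 FPKM (SD, n = 3) and 0.984 ± 1.34 FPKM (SD, n = 3). These shares are estimates from reads that the transcripts partly share, and they were not tested between the groups.

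**Figure D2:**
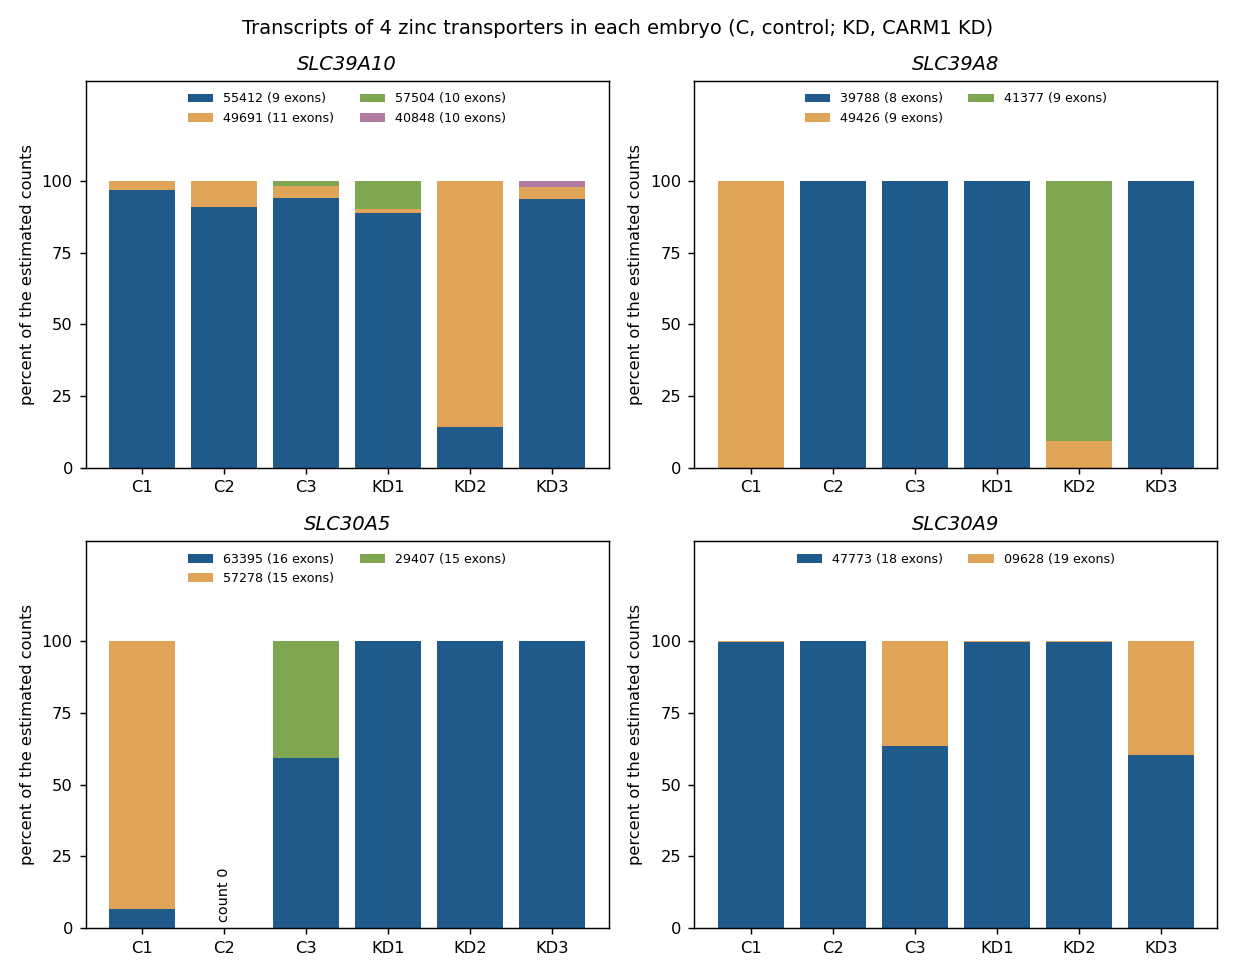
Percent of each gene's estimated counts assigned to each annotated transcript in the 3 control (C) and 3 *CARM1* KD (KD) embryos, for *SLC39A10*, *SLC39A8*, *SLC30A5* and *SLC30A9*; legends give the last digits of the transcript identifiers and the number of exons. For *SLC39A10* the 9-exon transcript takes at least 88.8% in every embryo except *CARM1* KD 2, where it takes 14.2%.

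None of the 8 other transporters changed past the threshold, an adjusted p under 0.05. The edgeR quasi-likelihood test, with Benjamini-Hochberg adjustment over all genes, called 0% of the 10639 genes tested and 0.686% (73 genes) at an unadjusted p under 0.05, and none of the 8 was among the latter. DESeq2 called 12 genes, or 0.115% of those with an adjusted p, again none of the 8. The adjusted p was 0.9999 for each of the 8 in edgeR, and the lowest over all alternative settings was 0.996. Of the 8, 4 had a log2 fold change above 0, against 55.3% of all genes tested, and 4 below 0, against 44.7%. Their median log2 fold change was -0.17, and that of all genes tested was 0.10. The 95% intervals of single genes were wide, reaching down to -4.30 for *SLC39A8* and up to 4.81 for *SLC39A7* on the log2 scale, so changes of several fold were not detectable in such genes with 3 embryos a group.

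**Figure D3:**
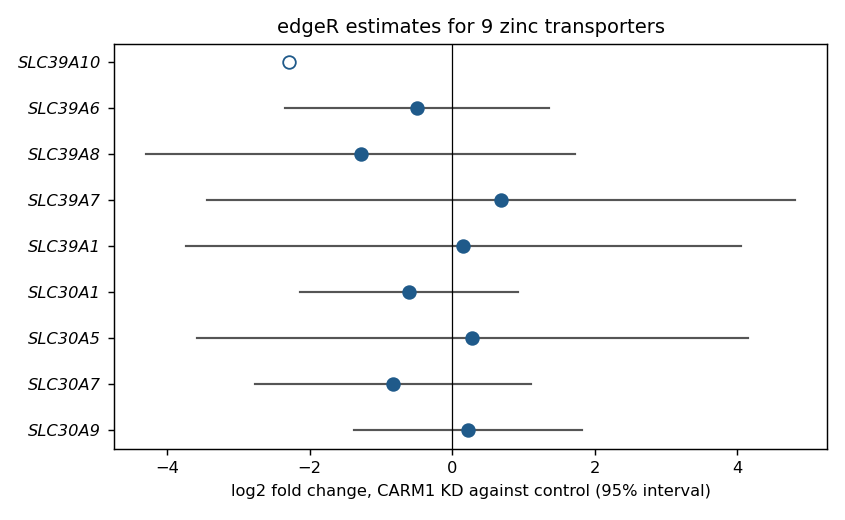
Log2 fold change of *CARM1* KD against control from the edgeR fit for the 9 transporters, with the 95% interval as a line for the 8 genes that were tested, all of which include 0. The open point is *SLC39A10* (-2.30), shown without an interval because it was chosen for its difference.

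*SLC39A6*, the LIV-1 importer that partners SLC39A10 and lies on chromosome 6 at 119861844 to 119926665 (minus strand), was the second most abundant transporter in the controls. It was at 5.78, 14.6 and 7.11 FPKM in control 1, 2 and 3, and at 6.28, 2.32 and 15.6 FPKM in *CARM1* KD 1, 2 and 3. The groups overlapped over nearly their whole range, with the oocyte-rich embryo highest in each. In the edgeR fit the log2 fold change was -0.50 (SE 0.79, edgeR adjusted p = 0.9999) and was 0.06 without control 2 and -1.24 without *CARM1* KD 3. The libraries did not come from a kit described as marking strand, and *ELP2*, a gene on the opposite strand that shares 41257 bases of its locus with *SLC39A6*, was at 9.5 to 16.8 FPKM, so reads where the exons of the pair meet cannot be told apart.

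Set against each other within an embryo, the importers of the pair changed places. The ratio of *SLC39A10* to *SLC39A6* in FPKM was 2.62, 1.68 and 2.42 in control 1, 2 and 3, and 0.749, 0.973 and 0.411 in *CARM1* KD 1, 2 and 3. *SLC39A10* was above its partner in every control and below it in every *CARM1* KD embryo, although *SLC39A6* itself did not separate the groups. This ratio contains *SLC39A10* and is therefore no independent measure.

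*SLC39A8*, which carries zinc and manganese (chromosome 8, 118604959 to 118685168, plus strand), varied widely within both groups. It was at 3.92, 10.2 and 0.667 FPKM in control 1, 2 and 3, and at 2.14, 0.179 and 5.34 FPKM in *CARM1* KD 1, 2 and 3. Control 2 and *CARM1* KD 3 were again the highest of their groups, and the groups overlapped. The fitted log2 fold change was -1.29 (SE 1.29, edgeR adjusted p = 0.9999). It was -0.06 without control 2, -2.29 without *CARM1* KD 3 and -0.88 without both, so its size rested on these embryos.

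*SLC39A1*, a plasma membrane importer outside the LIV-1 subfamily, and *SLC39A7*, which releases zinc from the endoplasmic reticulum and Golgi, shared a count of 0 in control 2. *SLC39A1* (chromosome 4, 95729505 to 95733821, plus strand) was at 5.49, 0 and 6.39 FPKM in control 1, 2 and 3, and at 4.51, 5.08 and 4.25 FPKM in *CARM1* KD 1, 2 and 3. In FPKM control 2 lay below all *CARM1* KD embryos, while control 1 and 3 lay above all of them. In CPM with TMM scaling control 1 (15.45) lay below *CARM1* KD 2 (17.28). As log2 fold change this gave 0.16 (SE 1.67, edgeR adjusted p = 0.9999) with control 2 and -0.44 without it. *SLC39A7* (chromosome 7, 25242292 to 25247685, plus strand) was at 0.819, 0 and 2.91 FPKM in the controls and 1.83, 3.04 and 1.39 FPKM in *CARM1* KD, and its groups overlapped. Its log2 fold change was 0.69 (SE 1.77, edgeR adjusted p = 0.9999), and it was 0.09 without control 2, 0.14 without *CARM1* KD 2 and 2.45 without control 3. The neighbouring genes *RXRB* and *HSD17B8* overlap its ends, by 885 and 78 bases.

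*SLC30A5* completes the genes with a count of 0 in control 2 and in no other embryo, 3 of the 9 transporters. The same was seen for 12.4% of all genes tested. In that library a count of 0 allows up to 0.101 CPM (3 counts, scaled to the library total), for counting error only, and the 3 genes were at 2.95 to 26.7 CPM in the other 5 embryos. Every one of those values lay above that limit. The high mitochondrial share and the many undetected genes of control 2 went with these zeros, and their part in them was not tested.

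The zinc exporter of the plasma membrane, *SLC30A1* (chromosome 9, 131632874 to 131641177, plus strand), which in mammalian cells is induced by zinc, was at 9.79, 3.68 and 9.85 FPKM in control 1, 2 and 3. In *CARM1* KD 1, 2 and 3 it was at 4.10, 4.80 and 8.17 FPKM. Control 2 was the lowest of all embryos, and control 1 and 3 were the highest. In the fit its log2 fold change was -0.61 (SE 0.66, edgeR adjusted p = 0.9999). It was -1.05 without control 2 and *CARM1* KD 3, -0.94 without control 2 alone, -0.33 without control 3 and -0.41 without *CARM1* KD 1.

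The exporters of the secretory pathway, *SLC30A5* and *SLC30A7*, supply zinc to enzymes such as alkaline phosphatases in the Golgi. *SLC30A5* (chromosome 16, 47284665 to 47321532, plus strand) was at 6.05, 0 and 4.74 FPKM in control 1, 2 and 3, and at 4.82, 3.64 and 5.57 FPKM in *CARM1* KD 1, 2 and 3. Apart from the zero in control 2, the groups covered nearly the same range in FPKM. In CPM with TMM scaling, control 1 and 3 (25.44 and 23.2) lay above every *CARM1* KD embryo (18.48 to 22.05). The log2 fold change was 0.28 (SE 1.66, edgeR adjusted p = 0.9999), and -0.32 without control 2. *SLC30A7* (chromosome 4, 117314845 to 117397862, minus strand) was at 3.78, 3.96 and 14.6 FPKM in the controls and at 6.17, 2.40 and 5.77 FPKM in *CARM1* KD. Here control 3 alone stood high. In the edgeR fit the log2 fold change was -0.83 (SE 0.83, edgeR adjusted p = 0.9999) and turned to 0.18 without control 3.

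*SLC30A9*, the transporter that carries zinc out of mitochondria (chromosome 8, 33058464 to 33113283, plus strand), varied least among the controls. It was at 5.61, 4.58 and 4.67 FPKM in control 1, 2 and 3, and at 7.90, 5.45 and 4.96 FPKM in *CARM1* KD 1, 2 and 3. In FPKM the *CARM1* KD embryos lay within or above the range of the controls. In CPM with TMM scaling *CARM1* KD 3 (13.94) lay below every control (18.77 to 19.82), and *CARM1* KD 1 and 2 lay above. The fitted log2 fold change was 0.22 (SE 0.69, edgeR adjusted p = 0.9999), and -0.07 without *CARM1* KD 1. Its interval, from -1.37 to 1.82, was among the narrower ones.

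Leaving out control 2 and *CARM1* KD 3 changed which genes separated the groups. In all 6 embryos the groups did not overlap for 1 of the 9 transporters, *SLC39A10*, beside 4.89% of all genes tested in either direction, 1.07% lower and 3.82% higher in *CARM1* KD. In CPM with TMM scaling it was again 1 of the 9, beside 4.34% of all genes in either direction and 1.54% lower. With the 2 oocyte-rich embryos left out, the groups did not overlap in FPKM for 3 of the 9, *SLC39A10*, *SLC39A1* and *SLC30A1*, each lower in *CARM1* KD. This stood beside 26.6% of all genes tested in either direction and 14.2% lower. In both added genes, in FPKM, control 2 lay below every *CARM1* KD embryo and control 1 and 3 lay above every one. Neither was past the threshold without these embryos. In CPM with TMM scaling, without the same 2 embryos, *SLC39A10* and *SLC30A1* were again lower in *CARM1* KD. *SLC39A1* overlapped, as control 1 (15.45) lay below *CARM1* KD 2 (17.28). *SLC30A5* was lower in *CARM1* KD (18.48 and 22.05 against 23.2 and 25.44). *SLC30A9* was higher (23.2 and 30.4 against 19.2 and 19.8). The share over all genes was not counted in this scaling.

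By level, the transporters of the control embryos ran from *SLC39A10* over *SLC39A6*, *SLC30A1*, *SLC30A7*, *SLC30A9*, *SLC39A8*, *SLC39A1* and *SLC30A5* down to *SLC39A7*, in mean FPKM. The ranges of neighbours in this order overlapped in 7 of 8 pairs, and only the lowest *SLC39A10* value (15.1 FPKM) was above the highest of *SLC39A6* (14.6 FPKM). In the *CARM1* KD embryos the order was *SLC39A6*, *SLC30A9*, *SLC30A1*, *SLC30A7*, *SLC30A5*, *SLC39A1*, *SLC39A10*, *SLC39A8* and *SLC39A7*, with all 8 neighbouring pairs overlapping. Within single embryos *SLC30A9* led in *CARM1* KD 1 and 2, and *SLC39A6* led in *CARM1* KD 3.

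As a description of the families in each embryo, the 5 importers together gave 31.1, 49.4 and 34.3 FPKM in the controls, while *CARM1* KD 1, 2 and 3 had 19.5, 12.9 and 33.0 FPKM. *CARM1* KD 3 reached the range of the controls. *SLC39A10* made up 48.6%, 49.6% and 50.2% of this sum in the controls and 24.2%, 17.5% and 19.4% in *CARM1* KD. Its share was nearly constant within the controls although control 2 differed from the others in its markers. This share contains the values that *SLC39A10* was chosen for, so its difference between the groups is no independent measure. Without *SLC39A10* the importer sum was 16, 24.9 and 17.1 FPKM in the controls and 14.8, 10.6 and 26.6 FPKM in *CARM1* KD, and the groups overlapped. The 4 exporters together were at 25.2, 12.2 and 33.8 FPKM in the controls and at 23.0, 16.3 and 24.5 FPKM in *CARM1* KD, also overlapping, with control 2 lowest.

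**Figure D4:**
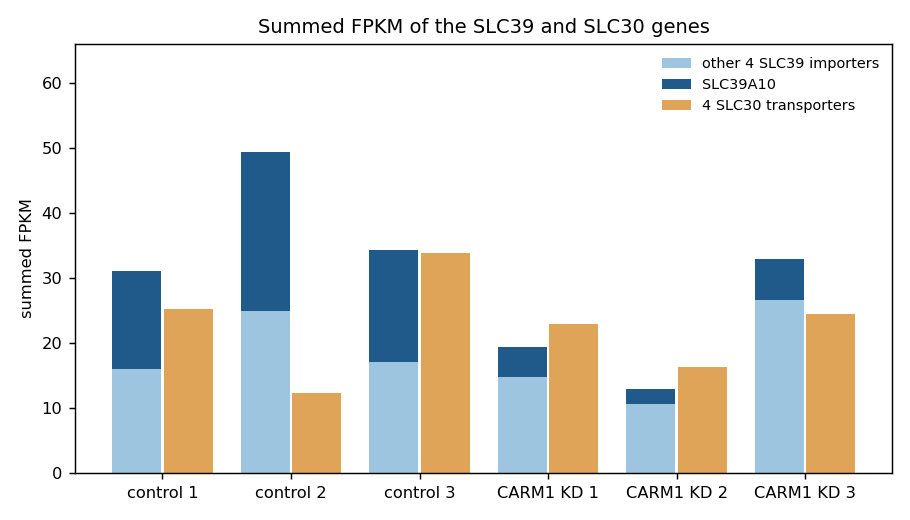
Summed FPKM of the 5 SLC39 importers (blue, with *SLC39A10* in dark blue) and of the 4 SLC30 exporters (orange) in each embryo. *SLC39A10* makes up 48.6 to 50.2% of the importer sum in controls and 17.5 to 24.2% in *CARM1* KD, while the remaining importers overlap between the groups. The share contains the values that *SLC39A10* was chosen for and is no independent measure.

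The leading transcript changed between embryos in *SLC39A8* and *SLC30A5* as well. For *SLC39A8*, 100% of the estimated counts were in ENSSSCT00000049426 in control 1 and in ENSSSCT00000039788 in every other embryo except *CARM1* KD 2, while 29 of 32 counts (90.6%) of *CARM1* KD 2 were in ENSSSCT00000041377. For *SLC30A5*, ENSSSCT00000057278 took 93.5% in control 1, and ENSSSCT00000063395 took 59.4% in control 3 and 100% in each *CARM1* KD embryo. By FPKM, ENSSSCT00000029407 led in control 3, with 53.45% against 46.55% for ENSSSCT00000063395. *SLC30A9* had ENSSSCT00000047773 as its leading transcript by counts, but a 19-exon transcript, ENSSSCT00000009628, took 36.3% of the counts in control 3 and 39.6% in *CARM1* KD 3 and at most 0.173% elsewhere. In FPKM, which allows for its shorter length, the 19-exon transcript led in these 2 embryos, with 50.7% and 54.2%. In all, 6 of the 9 transporters by counts, and 5 of the 9 by FPKM, had the same leading transcript in every embryo with a count. For *SLC30A1*, included in both numbers, this was fixed in advance, as it has only 1 annotated transcript. By counts, the switches in *SLC39A10*, *SLC39A8* and *SLC30A5* were mostly those of single embryos in either group.

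*SLC39A14*, an importer of zinc, manganese and iron, had no row under its name. The row described in the table as *SLC39A14* (ENSSSCG00000032622, chromosome 14, 6639461 to 6803650) carried the name *PPP3CC*, a neighbouring phosphatase subunit gene, and its transcripts covered both loci. It was at 0.322 to 0.486 FPKM in controls and 0.722 to 0.800 FPKM in *CARM1* KD, below the minimum for testing. Transcript ENSSSCT00000033351, with 9 exons inside the RefSeq interval of *SLC39A14* in Sscrofa11.1, was at 0.475, 0 and 0.787 FPKM in control 1, 2 and 3, and at 0.923, 1.27 and 1.69 FPKM in *CARM1* KD 1, 2 and 3. Every *CARM1* KD embryo was above every control in FPKM, as was seen for 3.82% of all genes tested, and the share over all transcripts was not counted. Its estimated counts, not scaled to depth, were 175 to 327 against 0 to 100. The 0 was that of control 2, where 18.3% of the genes tested had a count of 0. No test was run on this transcript, which was looked at after its row was found merged.

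Among the 5 genes whose pattern over the 6 embryos was most like that of *SLC39A10* were *LONRF3*, *HLTF*, *SGCD* and *FGGY*, with Pearson's r in log2(FPKM + 1) between 0.955 and 0.965. These points share their libraries and depths, and the genes were taken for having the highest r of all tested. Since *SLC39A10* was chosen for lower values in every *CARM1* KD embryo, lower values in these genes largely follow from that choice. They are no independent result. *HLTF*, a helicase-like ubiquitin ligase, was at 1.51, 3.40 and 1.64 FPKM in the controls and at 0.502, 0.0685 and 1.07 FPKM in *CARM1* KD. It had control 2 highest and *CARM1* KD 2 lowest, as *SLC39A10* had. *LONRF3* was at 0.989 to 1.07 FPKM in controls and 0.159 to 0.345 FPKM in *CARM1* KD, *SGCD* at 1.89 to 3.47 and 0.745 to 1.69 FPKM, and *FGGY* at 1.19 to 2.49 and 0 to 0.823 FPKM. Among the transporters r with *SLC39A10* was highest for *SLC39A6* (0.58) and *SLC39A8* (0.57) and lowest for *SLC39A7* (-0.64).

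The other genes of zinc handling were taken from a list of 26 (the remaining SLC39 and SLC30 genes, *TMEM163*, *MTF1*, metallothioneins, *GPR39* and zinc chaperones). Of these, 22 were found and 13 tested. None passed the threshold in edgeR, at an adjusted p (0% of all genes tested) or an unadjusted p under 0.05 (0.686%), or in DESeq2 (0.115%). Of the 13, 8 had a log2 fold change above 0, against 55.3% of all genes, with a median of 0.65 against 0.10. For none of the 13 did the groups not overlap, against 4.89% of all genes. Directions of 9 of the 13 turned when 1 embryo was left out, as given beside each. The 9 found but not tested did not exceed 2.40 FPKM in any embryo.

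*MTF1*, the zinc-sensing transcription factor, was at 10.2, 26.4 and 15.3 FPKM in control 1, 2 and 3, and at 10.6, 12.5 and 38.2 FPKM in *CARM1* KD 1, 2 and 3 (log2 fold change -0.04, 0.43 without control 2, 0.24 without *CARM1* KD 1 and 0.10 without *CARM1* KD 2). Without *CARM1* KD 3 the log2 fold change of *MTF1* was -0.68. The gene was highest in the oocyte-rich embryo of each group. *MT2A*, a metallothionein that binds zinc and is induced through MTF1, was at 209, 104 and 148 FPKM in the controls and at 248, 110 and 751 FPKM in *CARM1* KD (log2 fold change 0.99, edgeR adjusted p = 0.9999, and 0.19 without *CARM1* KD 3). *CARM1* KD 3 alone stood high, and the groups overlapped. *MT1A* was at 0.334 to 1.58 FPKM in controls and at 14.2, 0 and 1.13 FPKM in *CARM1* KD (log2 fold change 2.62, and -0.83 without *CARM1* KD 1), and *MT1E*, found by its description, at 0 to 5.04 FPKM and at 35.8, 0 and 1.16 FPKM (log2 fold change 2.67, and -2.16 without *CARM1* KD 1). *CARM1* KD 1 carried both differences, and since metallothionein genes are nearly identical copies, the division of reads among them is uncertain. For *MT1E* the log2 fold change was 5.98 without control 2, and 6.51 without both oocyte-rich embryos.

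The Golgi exporter subunit *SLC30A6*, which pairs with SLC30A5, was at 6.71, 5.80 and 14.8 FPKM in control 1, 2 and 3, and at 7.71, 2.40 and 4.08 FPKM in *CARM1* KD 1, 2 and 3 (log2 fold change -1.08, edgeR adjusted p = 0.9999). Its highest value, like that of *SLC30A7*, was in control 3. The vesicular exporter *SLC30A4* was at 0.348, 8.24 and 0 FPKM in the controls and 0.229, 0.0276 and 2.11 FPKM in *CARM1* KD (log2 fold change -2.33, but 1.87 without control 2, -4.73 without *CARM1* KD 3 and -0.29 without both). Its highest values were those of the oocyte-rich embryos. *SLC39A12* had its highest values in the same embryos, 2.12 and 2.17 FPKM, against 0 to 0.746 FPKM elsewhere (log2 fold change -0.54, but 0.61 without control 2, 0.05 without *CARM1* KD 2 and -1.93 without *CARM1* KD 3).

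Of the remaining importers, *SLC39A9*, a Golgi protein, was at 1.43 to 5.43 FPKM in controls and 3.19 to 8.94 FPKM in *CARM1* KD (log2 fold change 0.85). *SLC39A3*, close in sequence to SLC39A1, was at 3.98, 0.348 and 7.39 FPKM in the controls and at 4.62 to 6.51 FPKM in *CARM1* KD (log2 fold change 0.41, and -0.15 without control 2). Control 2 was its lowest embryo, as for *SLC39A1*. *SLC39A4*, the importer of the intestinal epithelium, was at 0.726 to 1.24 FPKM in controls and 0.190 to 1.10 FPKM in *CARM1* KD (log2 fold change -0.52). *SLC39A11* was at 0 to 2.09 FPKM in controls and 0.850 to 2.80 FPKM in *CARM1* KD (log2 fold change 0.65, 0.04 without control 2 and -0.34 without *CARM1* KD 2). The vesicular transporters *SLC30A2* and *TMEM163* were both highest in *CARM1* KD 2, at 4.08 and 6.88 FPKM, against at most 1.65 and 2.31 FPKM in any other embryo (log2 fold changes 0.87 and 1.03). Without *CARM1* KD 2 both directions turned, to -1.22 and -1.27. Without control 2 the log2 fold changes were 0.24 for *SLC30A2* and 1.61 for *TMEM163*.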

How the data were processed

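The labels gave the group and replicate number of each sample and no batch. Per gene and transcript, the authors deposited estimated counts and FPKM values, and the estimated counts were rounded to whole numbers for testing. The paper names Cufflinks and the pig genome, whereas the submitters' processing notes name HISAT2, StringTie, fastp, ChIPseeker, HOMER, edgeR and the build GRCh38.p10, without saying which made the deposited values. The 9 genes found overlapped the RefSeq genes of the same symbol in Sscrofa11.1. In the authors' files FPKM was written as a small constant where the count was 0 and is given as 0 here, and transcript counts added up to the gene's count in 24358 of 24358 genes.

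The 10639 genes reaching 1 FPKM in 2 or more of the 6 libraries entered edgeR's quasi-likelihood test (2-sided, TMM scaling, Benjamini-Hochberg adjustment, R 4.3.3, edgeR 4.0.16). A check on simulated data had to pass only for large changes at a smaller spread than that of these embryos. It therefore does not show what the test can detect here. The standard error was taken as log2 fold change over the root of F. Alternatives were limma 3.58.1 on log2(FPKM + 1) or log2(FPKM + 0.1), DESeq2 1.42.0, other scalings and filters, and leaving out libraries. Counting an unadjusted p of 0.05, leaving out embryos for single genes of the zinc list and leading transcripts by FPKM were added after the data were seen. Intervals from counts cover counting error only. With single embryos as samples, the p-values set the difference between the groups against the spread between these embryos. That spread was estimated with the help of all genes tested.

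The members and lists were chosen with earlier results of these data known. The rule for named genes took all members, every tested gene of the zinc list, the 5 genes most like *SLC39A10* by Pearson's r, and *CARM1*. Of those 5 genes, 1 is not reported here. *ELP2*, *RXRB*, *HSD17B8* and *PPP3CC* fall outside this rule and were named after their values were seen because they share a locus with a member.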

Additional observations from a re-analysis of the deposited data

How the results depend on the processing

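The log2 fold change of *SLC39A10* stayed below 0 in all 16 alternatives, from -2.55 to -1.92, and from -2.55 to -2.03 when single embryos were left out. The gene was chosen for lower values in every *CARM1* KD embryo, so its stable sign follows from that choice and is no support for the difference. None of the 8 other transporters passed the threshold in any alternative. With control 2 and *CARM1* KD 3 left out, the number of other transporters above 0 moved from 4 to 2. That of transporters with no overlap between the groups in FPKM moved from 1 to 3 (*SLC39A10*, *SLC39A1*, *SLC30A1*). Leaving out single embryos gave 3 to 5 transporters above 0 and 1 to 3 without overlap. In that count, taken in FPKM only, *SLC30A9* was added without control 1, *SLC39A1* and *SLC30A1* without control 2, and *SLC39A7* without control 3. Between 9.6% (without *CARM1* KD 2) and 17.5% (without *CARM1* KD 3) of all genes tested had no overlap. Directions turned for 5 of the 8. Without both oocyte-rich embryos *SLC39A1* was at -0.23 and *SLC30A5* at -0.26. When single embryos were left out, *SLC39A1* ranged from -0.44 (without control 2) to 0.81, with -0.06 without *CARM1* KD 2, and *SLC30A5* from -0.32 (without control 2) to 0.77. *SLC39A6* ranged from -1.24 to 0.058 (without control 2), *SLC30A7* from -1.19 to 0.18 (without control 3), and *SLC30A9* from -0.068 (without *CARM1* KD 1) to 0.39. The causes were not tested. Scalings moved the median log2 fold change of all genes by up to 0.13 (0.10 with TMM, 0.03 with DESeq2 size factors, -0.02 with upper quartile) and turned no transporter's direction.

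With the replicate number as a block, *SLC39A10* was at -2.30 and 0 genes were called, with 16 genes at an unadjusted p under 0.05 against 73 without the block. Deviations from the group mean correlated at 0.18, -0.47 and -0.50 between same-numbered embryos, and at 0.54 between control 2 and *CARM1* KD 3. Deviations within a group sum to 0, so these values depend on each other. They cannot decide whether the numbers stand for a shared batch. A mean FPKM of at least 5 left 4 of the 8 other transporters to fit. DESeq2 called 12 genes and edgeR 0.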
